A study of Mus musculus with 4 samples.

Results

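Secretory-type luminal nuclei are the milk-lineage epithelial nuclei of the mammary ducts that run through the inguinal fat pad. They were taken from single-nucleus RNA sequencing of inguinal white adipose tissue by what each nucleus expressed. A nucleus with at least 300 genes and at most 10% of its unique molecular identifiers (UMIs, each standing for 1 captured transcript) from mitochondrial genes was a member if it held a UMI of at least 3 of 8 marker genes, Ltf, Chst9, Fcgbp, Kcnd2, Barx2, Wfdc18, Ccdc129 and Slc5a7. The caseins Csn1s1, Csn1s2a, Csn2 and Csn3 with Lalba had to make up less than 2% of its UMIs, and fewer than 4 of 9 adipocyte genes could be present. This gave 2813 of 50067 kept nuclei, or 5.62%. The levels of these genes chose the nuclei, so they are described here and not tested.

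Tissue came from C57BL/6N mice aged 6 months, with 2 libraries labelled PTRF knockout and 2 labelled WT, and the titles number the mice separately. The labels give neither the sex of the mice nor the sequence removed in the knockout. PTRF is an older name of Cavin1, which encodes a coat protein of caveolae. Strain, age and tissue are the same for both groups.

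The mammary ducts have an inner luminal layer and an outer contractile layer of myoepithelial cells. Luminal cells are of 2 broad kinds, a hormone-sensing kind that carries the oestrogen, progesterone and prolactin receptors and signals to its neighbours, and a secretory kind that includes the luminal progenitors marked by Kit and Elf5 and gives rise to the milk-making alveolar cells. Prolactin acts in the secretory lineage through the kinase JAK2 and the transcription factor STAT5, and ELF5 works with STAT5 to turn on milk protein genes.

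Cavin1 went against the labels. It lies at chr11:100956733-100970887 (GRCm38), and over all kept nuclei it had 730 and 1759 UMIs, or 53.9 and 50.5 counts per 1000000 UMIs (CPM), in the libraries labelled PTRF knockout 1 and 2, against 40 and 9 UMIs, or 1.81 and 1.04 CPM, in those labelled WT 1 and 2. Secretory-type nuclei held 21 and 21 Cavin1 UMIs in the knockout-labelled libraries, against 3 and 0 in the WT-labelled ones. The ratio of these counts was 11.7, with a 95% interval of 3.75 to 59.1 that covers counting error only, and the difference did not pass the test across all genes (edgeR quasi-likelihood, adjusted p = 1.0). The names of the deposited files also give each library the genotype opposite to its label. Groups are kept as labelled throughout, and every direction below is a direction of labels that Cavin1 and the file names contradict.

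The libraries labelled PTRF knockout 1 and 2 gave 856 and 610 secretory-type nuclei, against 1080 and 267 in those labelled WT 1 and 2. Their median depth was 1748 and 2638 UMIs in the knockout-labelled libraries and 1846 and 2112 UMIs in the WT-labelled ones, above the medians of all kept nuclei (844.5 and 1401 UMIs, against 1022 and 933.5 UMIs). The library labelled WT 2 stood apart: across 10233 genes of the summed secretory-type nuclei its log2 CPM correlated with the other 3 libraries at Pearson r of 0.868 to 0.906, while those 3 correlated with each other at 0.936 to 0.945. It also held the lowest level of 40.3% of the 13177 genes tested. Its members summed to 794290 UMIs, the fewest of any library, against 1899209 to 2448657 in the others. How far this smaller sum sets the correlations and the 40.3% was not tested. Barcodes were shared between pairs of libraries in 53 to 150 cases, and 1 shared barcode, between knockout 1 and WT 1, was a member in both. Doublets were not removed.

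The nuclei were epithelial by genes that the rule did not use. A UMI from a list of 21 epithelial genes was present in 90.8% and 90.8% of members in the knockout-labelled libraries and in 94.4% and 95.1% in the WT-labelled ones. All 19 epithelial genes that passed the filter on low counts were higher in secretory-type nuclei than in the rest of the nuclei in each of the 4 libraries, against 29.9% of all genes tested. Against hormone-sensing luminal nuclei, 12 of the 19 were lower in all 4 libraries, where 13.6% of all genes tested were, and 4 were higher. Epcam, the epithelial adhesion molecule, stood at 400 and 570 CPM in the knockout-labelled libraries and at 495 and 292 CPM in the WT-labelled ones. Markers of other cell types were low. Adiponectin (Adipoq), made by adipocytes and limited by the rule, stood at 5.06 and 14.7 CPM against 2.45 and 1.26 CPM, where nuclei of the adipocyte gate held 259 and 341 CPM in the knockout-labelled libraries and 169 and 133 CPM in the WT-labelled ones. Summed over 9 genes, myoepithelial markers reached 145 and 212 CPM in the knockout-labelled libraries and 269 and 93.2 CPM in the WT-labelled ones, against 406 to 613 CPM in the remaining nuclei, and Krt17, which encodes a basal keratin, was at 0 in knockout 1 and WT 2.

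Transcripts of fibroblasts, B cells and adipocytes were most abundant in the secretory-type nuclei of the library labelled knockout 2, those of myoepithelial cells in WT 1. The summed level of 10 fibroblast markers was 104 and 282 CPM in the libraries labelled knockout 1 and 2, against 103 and 64.2 CPM in those labelled WT 1 and 2. The 10 B-cell markers summed to 170 and 528 CPM, against 150 and 120 CPM. At least 3 of 10 adipocyte markers were present in 12.3% of its members, compared with 1.75% in knockout 1 and with 2.59% and 1.87% in WT 1 and 2. A refit left out members with 3 or more genes of another class, hormone-sensing nuclei among those classes. It kept 787 and 442 members in the knockout-labelled libraries and 936 and 238 in the WT-labelled ones. It called 1 gene, the same as the fit to all members. The part of such transcripts in the members that stayed was not tested.

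**Figure D1:**
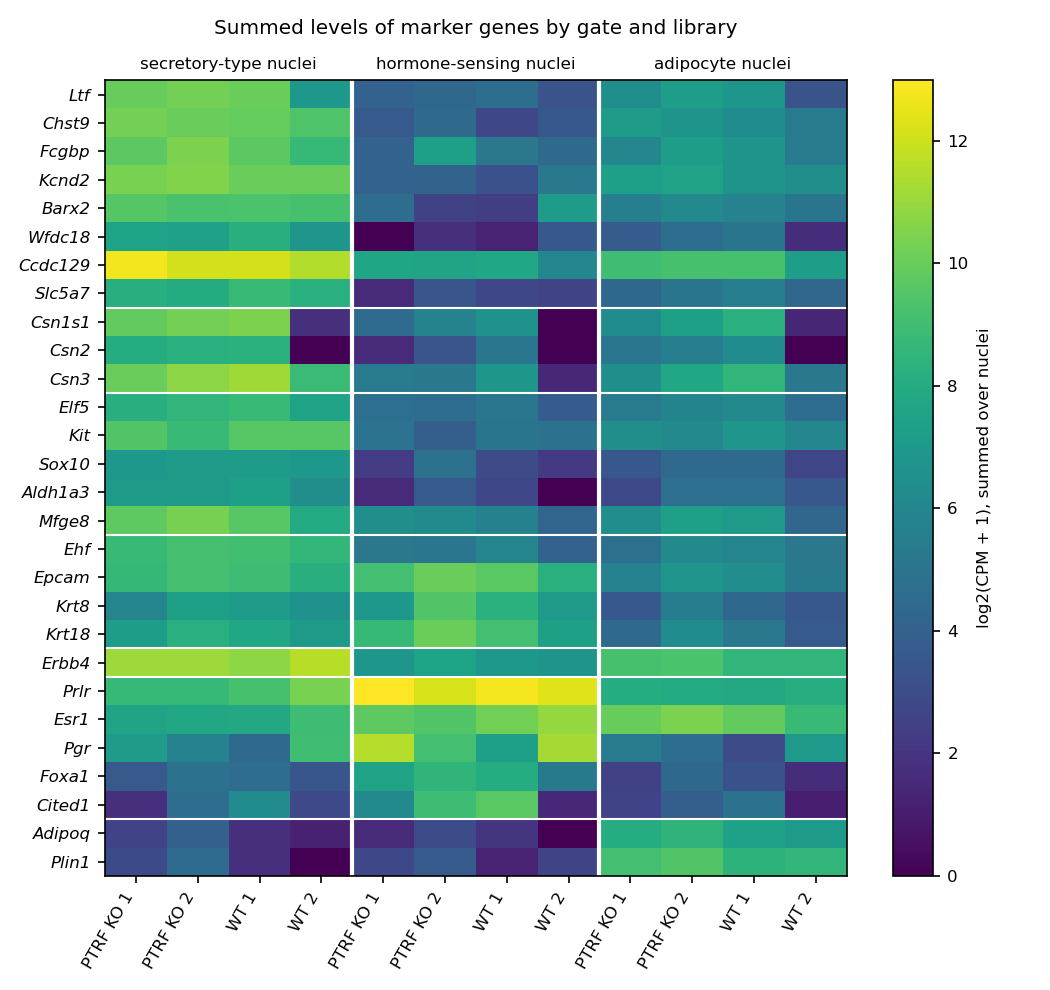
Summed levels of 28 marker genes (rows) as log2(CPM + 1) in secretory-type, hormone-sensing and adipocyte nuclei of each library (columns), grouped as labelled. The upper 8 genes chose the secretory-type nuclei. Elf5, Kit, Sox10 and Aldh1a3 were bright in secretory-type nuclei and dark in hormone-sensing ones, and Csn1s1 and Csn2 were dark in the library labelled WT 2.

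The 8 marker genes differed in how many members carried them. Ccdc129, whose protein contains a coiled coil, was present in 91.8% to 95.5% of members of each library, and Wfdc18, of the family of small secreted proteins with a whey acidic protein core, in 16.7% to 24.4%. Ltf encodes lactoferrin, the iron-binding antimicrobial protein of milk. It was present in 63.9% and 63.4% of members in the knockout-labelled libraries, against 59.4% in WT 1 and 18.0% in WT 2, and its summed level was 982 and 1238 CPM in the knockout-labelled libraries, against 1078 and 118 CPM in the WT-labelled ones. Kcnd2, a potassium channel subunit, and Barx2, a homeobox factor, were close to their WT 1 levels in WT 2. Kcnd2 stood at 1309 and 1479 CPM in the knockout-labelled libraries against 1020 and 1041 CPM in the WT-labelled ones, and Barx2 at 766 and 619 CPM against 637 and 598 CPM. Members with exactly 3 markers, just inside the rule, held epithelial transcripts at 2828, 3525, 3044 and 3035 CPM in knockout 1, knockout 2, WT 1 and WT 2, and nuclei with 2 markers, just outside it, held 2119, 1136, 2269 and 2250 CPM. In knockout 2 the step between 2 and 3 markers was therefore the widest of the 4 libraries.

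The 15 genes outside the rule with the largest ratio over the remaining nuclei, taken in the library where that ratio was lowest, were Muc15, Kit, Lurap1l, Ehf, Atp6v1b1, Ntn1, Inhbb, Aldh1a3, BC006965, Mfge8, Ntng1, Plscr2, Elf5, Ccnd1 and Sorbs2. These ratios describe how the nuclei were chosen and are not tested, because the choice of cells sets them. Muc15, a membrane mucin of the milk fat globule, stood at 171 and 281 CPM in the knockout-labelled libraries and at 230 and 89.4 CPM in the WT-labelled ones, at least 8.86 times the level in the remaining nuclei of the same library. Kit, the receptor for stem cell factor, stood at 702 and 443 CPM against 786 and 791 CPM. Ehf is an ETS transcription factor of epithelia, and its level was 451 and 573 CPM in the knockout-labelled libraries and 524 and 393 CPM in the WT-labelled ones. Inhbb encodes the subunit of activin B, Ntn1 the guidance factor netrin-1, and Atp6v1b1 a subunit of the proton pump. The lowest ratio over the remaining nuclei was 6.50 for Inhbb, 6.71 for Ntn1 and 6.86 for Atp6v1b1.

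Of 18 listed progenitor and luminal factors, 15 were higher in secretory-type than in hormone-sensing nuclei in all 4 libraries, against 23.8% of all genes tested. The hormone-sensing gate held 590 other nuclei with an epithelial UMI and at least 3 of the receptors and hormone-response genes of a separate list. Elf5 stood at 294 and 369 CPM in secretory-type nuclei of the knockout-labelled libraries, against 450 and 175 CPM in the WT-labelled ones, and at 12.5 to 33.1 CPM in hormone-sensing nuclei. Sox10, a factor of multipotent epithelial cells, stood at 120 and 144 CPM against 144 and 121 CPM in secretory-type nuclei, and at 3.57 to 28.7 CPM in hormone-sensing ones. Aldh1a3, which makes retinoic acid, stood at 134 and 136 CPM against 158 and 84.4 CPM. Gata3, the factor of luminal identity, ran the other way. Its level was 393 and 451 CPM in the knockout-labelled libraries and 430 and 400 CPM in the WT-labelled ones in secretory-type nuclei, where hormone-sensing nuclei held 618 to 1301 CPM. Erbb4, the neuregulin receptor that feeds STAT5 in the mammary gland, stood at 2169.8 and 2199 CPM in the knockout-labelled libraries and at 1752 and 3130 CPM in the WT-labelled ones, against 105 to 184 CPM in hormone-sensing nuclei.

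The receptors that define the other luminal kind were present at lower levels. Of 8 hormone-sensing genes tested, 7 were below the hormone-sensing nuclei in all 4 libraries, where 13.6% of all genes tested were. Both gates were chosen by expression, so these counts are descriptive. Of the members, 161 also held at least 3 hormone-sensing genes, 31 and 36 in the knockout-labelled libraries and 72 and 22 in the WT-labelled ones, which is 3.62%, 5.90%, 6.67% and 8.24% of the members of knockout 1, knockout 2, WT 1 and WT 2.

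The share of secretory-type nuclei did not follow the labels. It was 7.14% and 3.84% of kept nuclei in the libraries labelled PTRF knockout, against 6.96% and 4.01% in those labelled WT. The groups overlapped, and the difference of their means was 0.00916 percentage points (5.49% ± 2.33 in knockout-labelled and 5.48% ± 2.08 in WT-labelled libraries, SD, n = 2 each; two-sided exact permutation test, p = 1.0, where 0.33 is the smallest p that 2 libraries against 2 allow). The exact 95% binomial interval ran from 3.55% to 4.15% in knockout 2 and from 6.69% to 7.62% in knockout 1, so that libraries of 1 label differed by more than counting error. With every nucleus thinned to 500 UMIs the shares were 3.65% and 1.93% against 3.40% and 1.34%. Among luminal nuclei alone (secretory-type, hormone-sensing and milk-rich together) the secretory-type share was 85.8% and 86.8% in the knockout-labelled libraries and 77.5% and 66.9% in the WT-labelled ones. Here the groups did not overlap, and p was 0.33, the smallest that the exact test allows.

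**Figure D2:**
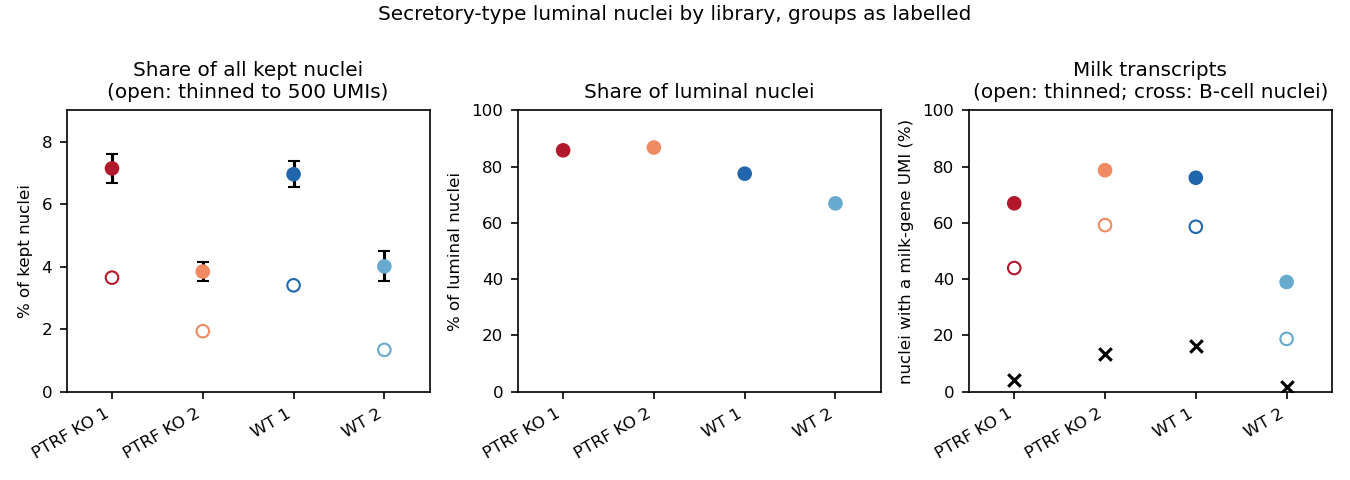
Left, secretory-type nuclei as a percent of kept nuclei in each library, with exact 95% binomial intervals (filled points) and after thinning to 500 UMIs (open points). Middle, the same nuclei as a percent of luminal nuclei. Right, the percent of secretory-type nuclei with a milk-gene UMI, plain (filled) and thinned (open), with B-cell nuclei as crosses. Each label has 1 library near 7% and 1 near 4% of kept nuclei, and milk transcripts were least frequent in WT 2.

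Milk protein transcripts were present in secretory-type nuclei of 3 libraries and scarce in the fourth. A UMI of at least 1 of the 5 milk genes was found in 66.9% and 78.7% of members in the knockout-labelled libraries, against 76.0% in WT 1 and 39.0% in WT 2. After thinning to 500 UMIs the shares were 43.9% and 59.2% against 58.6% and 18.7%. B-cell nuclei, which should not make milk proteins, gave 4.17% and 13.3% against 16.0% and 1.63% before thinning. Their median depths were 722.5, 1356.5, 750 and 821 UMIs in knockout 1, knockout 2, WT 1 and WT 2. After thinning to 500 UMIs they gave 2.59% and 6.44% against 10.6% and 0.815%. The shares in secretory-type nuclei were above that background in each library, thinned or not. Csn1s1, the alpha-S1 casein, had 1845 and 2366 UMIs (934 and 1246 CPM) in members of the knockout-labelled libraries, against 3386 (1383 CPM) in WT 1 and 2 (2.52 CPM) in WT 2. Csn2, the beta casein, had 510 and 568 UMIs against 760 and 0, and a count of 0 in WT 2 allows up to 3.78 CPM. Csn3, the kappa casein that stabilises the casein micelle, was the milk gene that remained there, with 1029 and 1681 CPM in the knockout-labelled libraries and 2262 and 461 CPM in the WT-labelled ones. All 5 milk genes were lowest in WT 2.

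The promoters of Csn1s1, Csn2 and Ltf are shown. Transcripts of Csn1s1 and Csn2 were nearly absent from WT 2 alone, and Ltf had its lowest level of the 4 libraries there. Csn1s2a was nearly absent from WT 2 in the same way, but its promoter, which has no match to the motif marked below, is not shown. Each line gives the 250 bases before the start site from RefSeq (GRCm38.p6), 5′ to 3′ on the gene's strand, in lower case. Capitals mark TTCNNNGAA, the palindromic core to which STAT5 and other STAT factors bind, which reads the same on both strands.
Csn1s1, chr5:87665958-87666207, plus strand: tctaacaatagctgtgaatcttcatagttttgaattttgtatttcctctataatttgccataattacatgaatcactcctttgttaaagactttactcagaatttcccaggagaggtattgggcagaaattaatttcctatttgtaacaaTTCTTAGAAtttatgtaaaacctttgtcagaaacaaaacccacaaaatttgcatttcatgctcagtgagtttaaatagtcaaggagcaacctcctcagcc
Csn2, chr5:87699426-87699675, minus strand: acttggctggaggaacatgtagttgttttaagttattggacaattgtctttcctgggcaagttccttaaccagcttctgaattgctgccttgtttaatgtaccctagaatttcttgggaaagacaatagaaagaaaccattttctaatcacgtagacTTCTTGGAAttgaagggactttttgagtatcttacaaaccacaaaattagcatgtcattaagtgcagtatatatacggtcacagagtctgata
Ltf, chr9:111019042-111019291, plus strand: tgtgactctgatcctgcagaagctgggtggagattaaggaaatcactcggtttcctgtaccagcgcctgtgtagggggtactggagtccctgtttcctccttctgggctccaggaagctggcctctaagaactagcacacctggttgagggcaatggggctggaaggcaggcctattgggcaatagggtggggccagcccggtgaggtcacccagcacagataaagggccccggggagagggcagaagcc
The motif lies 100 to 92 bases before the start of Csn1s1 and 93 to 85 bases before that of Csn2. Of the milk genes, 4 have a window in the table and 2 of them hold the motif, those of Csn1s1 and Csn2. Of the marker genes, 6 have a window and 0 hold it, with Ccdc129 found under its RefSeq symbol Itprid1. Over all 32851 promoter windows of the same length, 7.02% hold it. The windows of Csn1s2a and Lalba have no match. Csn1s2a stood at 66.8 and 95.3 CPM in the knockout-labelled libraries and at 87.4 and 2.52 CPM in the WT-labelled ones. Lalba stood at 3.04 and 16.8 CPM against 39.2 and 0 CPM, and its level in knockout 1 was below the 3.78 CPM that a count of 0 allows in WT 2. A match is a description of letters and not of binding.

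Nuclei at the far end of this lineage, in which milk genes made up at least 2% of UMIs, were set aside by the rule. They numbered 3 and 3 in the knockout-labelled libraries and 85 and 0 in the WT-labelled ones. The 2% limit itself removed 33 nuclei that met the marker rule, 2 and 3 in the knockout-labelled libraries and 28 and 0 in the WT-labelled ones. Just inside it, 27 and 26 members held milk genes at 1% to 2% of their UMIs in the knockout-labelled libraries, against 103 and 0 in the WT-labelled ones. The limit on adipocyte genes removed 581 nuclei, 41 and 377 against 150 and 13.

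Other genes of milk secretion were also lowest in WT 2. Of 10 such genes that passed the filter, 9 had their lowest level in that library, against 40.3% of all genes tested, and 0 passed the test between the labels in either direction, where 0.00759% of all genes were called higher and 0% lower. Their median log2 difference, PTRF knockout minus WT, was 0.37, against 0.00 over all genes tested. Btn1a1, the butyrophilin of the milk fat globule, stood at 345 and 396 CPM in the knockout-labelled libraries and at 442 and 59.2 CPM in the WT-labelled ones (adjusted p = 1.0, edgeR). Xdh encodes xanthine dehydrogenase, the partner of butyrophilin in milk fat secretion, and stood at 365 and 437 CPM against 967 and 175 CPM. Mfge8 and Spp1 are not among these 10 and come from the progenitor and the antimicrobial lists. Of the genes tested on those lists, 10 of 18 and 4 of 11 were lowest in WT 2. Mfge8, whose product coats the milk fat globule, stood at 870 and 1263 CPM against 789 and 240 CPM. Its groups did not overlap, as for 20.9% of all genes tested in that direction, and it did not pass the test. Spp1, the secreted phosphoprotein osteopontin, stood at 238 and 58.4 CPM in the knockout-labelled libraries and at 539 and 0 CPM in the WT-labelled ones.

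Secretion genes were higher in members with a milk UMI than in those without in some libraries. Btn1a1 stood at 393 and 426 CPM in milk-positive members of the knockout-labelled libraries and at 493 and 63.7 CPM in those of the WT-labelled ones, against 192, 149, 214 and 54.7 CPM in the milk-negative members of knockout 1, knockout 2, WT 1 and WT 2. Ltf in milk-positive members was 1043 and 1312 CPM against 1034 and 94.3 CPM. Milk-negative members of WT 2 held 142 CPM of Ltf, where those of WT 1 held 1275 CPM, so Ltf was low in that library with and without milk transcripts. Milk-negative members were shallower, with median depths of 1319 and 1127 UMIs in the knockout-labelled libraries and 1396 and 1871 UMIs in the WT-labelled ones.

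**Figure D3:**
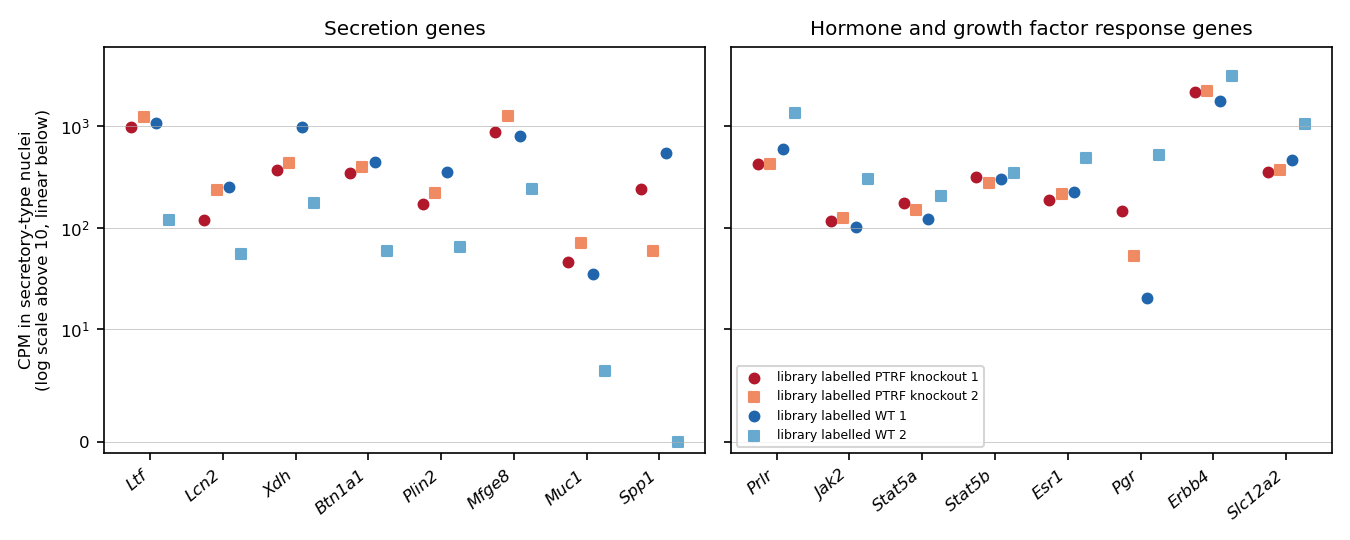
CPM summed over secretory-type nuclei for 8 secretion genes (left) and 8 hormone and growth factor response genes (right), 1 point per library, on an axis that is logarithmic above 10 and linear below. The library labelled WT 2 is the lowest for all 8 secretion genes shown, with Spp1 at 0. It is the highest for all 8 genes on the right. Both panels show genes picked from several lists that also hold genes going other ways. Foxa1 and Cish, of the lists on the right, are not highest in WT 2. Of the 11 antimicrobial genes tested, a list that holds Lcn2, 4 were lowest in WT 2 and 5 in WT 1.

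Of 27 listed genes of antimicrobial defence, another secretory programme of this lineage, 26 are among the files' symbols and 11 passed the filter. Of these 11, 9 had a log2 difference above 0, as did 50.6% of all genes tested. The test called 0 of them (edgeR), where 0.00759% of all genes were called. Lcn2, the siderophore-binding lipocalin 2, stood at 118 and 233 CPM in the knockout-labelled libraries and at 252 and 55.4 CPM in the WT-labelled ones. Of 5 listed genes of IgA transfer, 3 passed the filter and 0 passed the test. Pigr, the receptor that carries IgA across the epithelium, stood at 16.2 and 32.1 CPM in the knockout-labelled libraries and at 13.5 and 1.26 CPM in the WT-labelled ones, and the chemokine gene Ccl25 at 63.8 and 66.9 CPM against 39.6 and 79.3 CPM.

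Receptors for prolactin, oestrogen and progesterone were highest in WT 2, while Foxa1, Cited1 and Wnt4 of the hormone-sensing list were not. Of the 8 genes of that list tested, 5 were highest in WT 2, as were 7 of the 11 genes of the prolactin and STAT5 list, against 24% of all genes tested. Foxa1, a cofactor of the oestrogen receptor, was lowest there, at 11.1 and 29.0 CPM in the knockout-labelled libraries and 23.7 and 10.1 CPM in the WT-labelled ones. Cited1, a transcriptional coregulator, stood at 2.53 and 23.7 CPM against 75.1 and 6.29 CPM. Prlr, the prolactin receptor, stood at 420 and 418 CPM in the knockout-labelled libraries and at 591 and 1331 CPM in the WT-labelled ones, and Esr1, the oestrogen receptor, at 188 and 215 CPM against 224 and 486 CPM. For both genes the groups did not overlap, as for 9.96% of all genes tested in that direction, and neither passed the test. The log2 difference was -1.31 ± 0.40 for Prlr (SE, unadjusted p = 0.0111, adjusted p = 1.0, edgeR) and -0.92 ± 0.37 for Esr1 (unadjusted p = 0.0393, adjusted p = 1.0). Pgr, the progesterone receptor, stood at 145 and 52.1 CPM against 20.4 and 515 CPM, so WT 1 and WT 2 were the lowest and the highest library. Slc12a2, the sodium, potassium and chloride cotransporter that supplies epithelial secretion, stood at 351 and 365 CPM against 458 and 1045 CPM.

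The WT-labelled libraries carried these differences unequally. Without the library labelled WT 2 the log2 difference was -0.23 for Esr1, -0.57 for Prlr and -0.43 for Slc12a2, where with it the values were -0.92, -1.31 and -1.18. Without WT 1 it was -1.41, -1.81 and -1.69, with WT 2 as the only WT-labelled library. With all libraries, but without members that held 3 or more genes of another class, the values were -0.056, -0.75 and -0.42. Esr1 and Prlr are on the hormone-sensing list, which is 1 of those classes, so the removal acted on their own transcripts. Without the 5% of members with the most UMIs the values were -0.23, -1.06 and -0.69. Downstream of the receptor, Jak2 stood at 115 and 125 CPM in the knockout-labelled libraries and at 100 and 301 CPM in the WT-labelled ones, Stat5a at 175 and 150 CPM against 120 and 204 CPM, and Stat5b at 318 and 276 CPM against 302 and 347 CPM. Cish, a feedback inhibitor that STAT5 induces, stood at 53.7 and 64.8 CPM against 45.3 and 50.4 CPM. Of the 11 genes of the prolactin and STAT5 list, 0 passed the test, and the median log2 difference was -0.27. The difference was above 0 for 2 of them, against 50.6% of all genes tested.

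Between the labels, 1 gene passed the test among 13177 in secretory-type nuclei, which is 0.00759% (edgeR quasi-likelihood, Benjamini-Hochberg over all genes, adjusted p under 0.05), and 420 (3.19%) had an unadjusted p under 0.05. DESeq2 called 7. Without the library labelled WT 1 edgeR called 486 genes, without WT 2 54, and without knockout 1 or knockout 2 it called 2 each. The gene was Gm47283, a predicted protein-coding gene that GENCODE M21 places at chrY:90784738-90816464 (GRCm38), where reads of near-identical copies may be split, so its level is uncertain. It stood at 2465 and 1604 CPM in the knockout-labelled libraries, against 84.5 and 57.9 CPM in the WT-labelled ones. Its groups were far apart, with a log2 difference of 4.74 ± 0.37 (SE, adjusted p = 0.00451, n = 2 each). The level was not particular to these nuclei: over all kept nuclei it was 2245 and 1465 CPM against 42.4 and 28.9 CPM, and in hormone-sensing nuclei 1360 and 1044 CPM against 57.5 and 32.2 CPM. Groups did not overlap, with the knockout-labelled libraries higher, for 20.9% of genes tested.

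The other 9 of the 10 genes with the smallest p missed the threshold. Without the library labelled WT 1 all 10 passed it, and without WT 2 9 did, Gabrg3 being the exception. Each of these fits leaves 1 WT-labelled library, so its spread comes from the knockout-labelled libraries alone. DESeq2 called 6 of the 10, Gabrg3 among them. With an equal number of members per library edgeR also called Gabrg3 (adjusted p = 0.0396). It did so in members without a milk UMI (adjusted p = 0.0106), and in no other choice of members. Coro2a, an actin-binding coronin, stood at 165 and 202 CPM in the knockout-labelled libraries and at 548 and 765 CPM in the WT-labelled ones (log2 difference -1.95 ± 0.27, adjusted p = 0.285, edgeR). Trim14, a gene of the tripartite motif family, stood at 135 and 188.5 CPM against 343 and 431 CPM (log2 -1.37 ± 0.26, adjusted p = 0.704). These neighbours are separated by 795 bases, Coro2a at chr4:46536937-46602202 and Trim14 at chr4:46493781-46536141, both on the minus strand. Whether any reads are counted for the wrong one of these neighbours was not tested. In hormone-sensing nuclei Coro2a stood at 165 and 180 CPM against 588 and 404 CPM.

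Gabrg3, a GABA-A receptor subunit, stood at 524 and 197 CPM in the knockout-labelled libraries, against 5.72 and 6.29 CPM in the WT-labelled ones (log2 5.86 ± 0.67, adjusted p = 0.499, edgeR). In hormone-sensing nuclei it stood at 9.96 and 14.4 CPM against 4.31 and 10.7 CPM, and the difference between the gates had a log2 value of 5.02 ± 0.90 (adjusted p = 0.567). Adipocyte nuclei held 111 and 64.3 CPM against 13.7 and 45.9 CPM. Hp encodes haptoglobin, the haemoglobin-binding plasma protein, and stood at 122 and 127 CPM in the knockout-labelled libraries and at 23.3 and 6.29 CPM in the WT-labelled ones (log2 2.81 ± 0.43, adjusted p = 0.499). Arl4c, a small GTPase, stood at 79.5 and 65.3 CPM against 23.3 and 10.1 CPM, and Plcd3, a phospholipase C, at 22.3 and 19.5 CPM against 62.5 and 60.4 CPM. Gm43305, a non-coding transcript, and the pseudogene Tmem181b-ps were the other 2 with a lower level in the knockout-labelled libraries, at 2.53 and 5.79 CPM against 27.0 and 46.6 CPM, and at 8.10 and 12.6 CPM against 54.3 and 36.5 CPM.

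Igha, the constant region of IgA that plasma cells make, was the tenth of these genes. Secretory-type nuclei held 23 and 77 Igha UMIs in the knockout-labelled libraries and 0 and 0 in the WT-labelled ones, which is at least 6.91-fold higher as a mean level against a limit of 3 counts per library (adjusted p = 0.750, edgeR). Over all kept nuclei the counts were 960 and 14566 against 66 and 20. Adipocyte nuclei, which do not make IgA, held 23.9 and 154 CPM in the knockout-labelled libraries and 0.819 and 0.553 CPM in the WT-labelled ones, above the 11.6 and 40.5 CPM of secretory-type nuclei in the knockout-labelled libraries. Igha in secretory-type nuclei is therefore at or below the level in a type that should lack it.

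**Figure D4:**
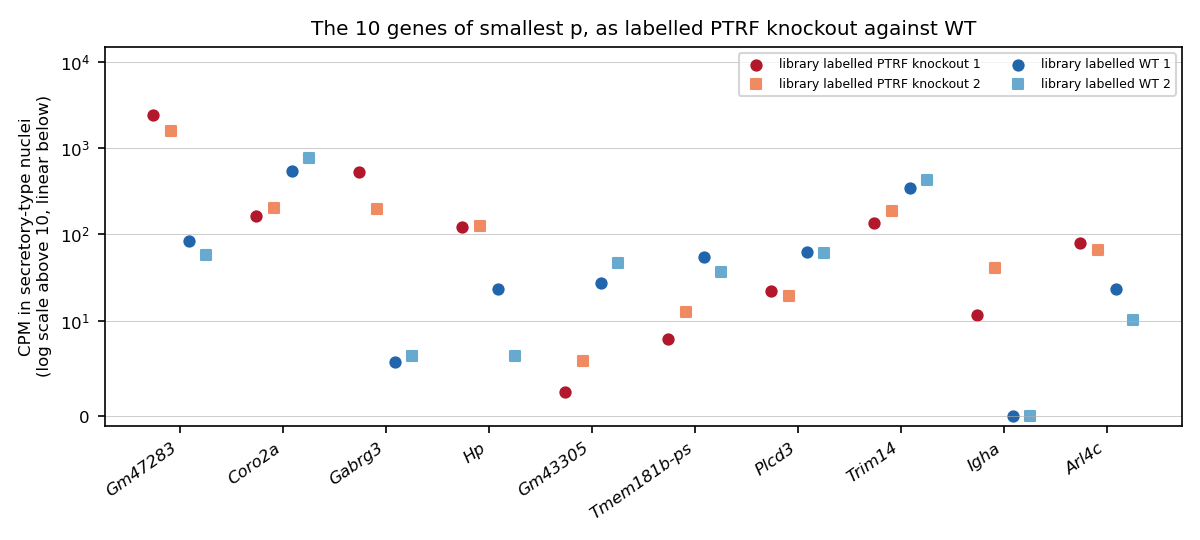
CPM summed over secretory-type nuclei for the 10 genes of smallest p, 1 point per library, on an axis that is logarithmic above 10 and linear below. The knockout-labelled points lie apart from the WT-labelled ones for each of these genes, which their choice by smallest p favours. Of all genes tested, 20.9% had groups that did not overlap with the knockout-labelled libraries higher, and 9.96% with them lower. Gm47283 alone passed the adjusted threshold.

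Whether the label difference was unlike that of hormone-sensing nuclei was tested as an interaction of gate and label. It was called for 0 of 10570 genes (0%), with 346 (3.27%) at an unadjusted p under 0.05, and with 17 called without the library labelled WT 1, while hormone-sensing nuclei alone gave 0 of 7902 calls (0%). Ido1, which breaks down tryptophan, had the third smallest p of the interaction. It stood at 84.1 and 106 CPM in secretory-type nuclei of the knockout-labelled libraries, against 6.94 and 46.6 CPM in the WT-labelled ones, and at 1412 and 1465 CPM against 24.4 and 91.1 CPM in hormone-sensing nuclei. The log2 difference was 1.92 ± 0.90 in secretory-type nuclei and 4.50 ± 0.77 in hormone-sensing ones, and the interaction was -2.58 ± 0.43 (adjusted p = 0.522, edgeR). Olfm4, a secreted glycoprotein of intestinal and other epithelia, had 18 and 44 UMIs in secretory-type nuclei of the knockout-labelled libraries, against 1 and 1 in the WT-labelled ones, a ratio of 25.9 with a counting interval of 6.89 to 219. Its level was 9.11 and 23.2 CPM against 0.408 and 1.26 CPM there, and 239 and 237 CPM against 1.44 and 5.36 CPM in hormone-sensing nuclei. Adipocyte nuclei held 52.6 and 60.4 CPM of Ido1 against 3.14 and 6.08 CPM, and 10.9 and 9.39 CPM of Olfm4 against 2.59 and 6.63 CPM. In the knockout-labelled libraries both genes were nearer in secretory-type nuclei to the adipocyte level than to the hormone-sensing one. The source of these transcripts was not tested. In secretory-type nuclei without WT 2, the log2 difference was 3.68 for Ido1 and 5.02 for Olfm4. Without WT 1 it was 0.88 and 3.44. Neither gene passed the test with all libraries.

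**Figure D5:**
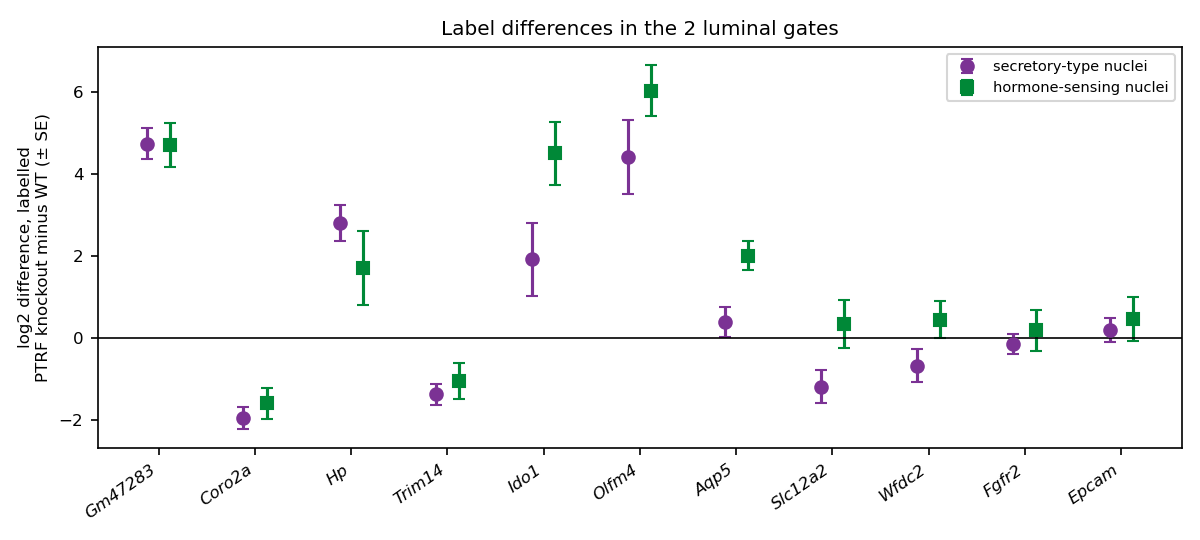
Log2 differences (PTRF knockout minus WT, as labelled, with SE) of 11 genes in secretory-type (left of each pair) and hormone-sensing nuclei (right). Gm47283 had 4.74 and 4.70, and Coro2a -1.95 and -1.59, in secretory-type and hormone-sensing nuclei, while Ido1 had 1.92 in secretory-type and 4.50 in hormone-sensing nuclei; no interaction passed the threshold.

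Glucocorticoid-responsive genes stood lower in the knockout-labelled libraries without passing the test. Of the 11 genes of the glucocorticoid and metallothionein list, 9 had a log2 difference below 0, as did 6508 of the 13177 genes tested. In that direction 6 had groups that did not overlap, where 9.96% of all genes did, and 0 passed (edgeR). Fkbp5, the immunophilin that the glucocorticoid receptor induces, stood at 196 and 264 CPM in the knockout-labelled libraries and at 864 and 392 CPM in the WT-labelled ones (log2 -1.55 ± 0.35, unadjusted p = 0.00206, adjusted p = 1.0). Without the library labelled WT 2 the log2 difference of Fkbp5 was -1.99, and without WT 1 it was -0.92. Tsc22d3, which encodes the glucocorticoid-induced leucine zipper, stood at 38.5 and 73.2 CPM against 94.3 and 89.4 CPM. Zbtb16, a transcription factor, stood at 142 and 390 CPM against 436 and 793 CPM. Adipocyte nuclei also held less Fkbp5 in the knockout-labelled libraries, 94.1 and 342 CPM against 1375 and 921 CPM.

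The remaining lists gave 0 calls in either direction (edgeR), where 0.00759% of all genes were called. Growth factor receptors and ligands had a median log2 difference of -0.14 over 20 genes tested, with Fgfr1 at 112 and 161 CPM in the knockout-labelled libraries and 195 and 239 CPM in the WT-labelled ones, and Nrg1, the ligand of ERBB3 and ERBB4, at 49.6 and 79.5 CPM against 85.8 and 189 CPM. Antigen presentation genes had a median of 0.96 over 10 genes, and each of the 10 was highest in the library labelled knockout 2, where 35.3% of all genes tested were highest and where fibroblast and B-cell markers were also at their highest sums. H2-K1, the class I heavy chain, stood at 684 and 944 CPM against 914 and 370 CPM. Of 8 caveola genes tested, 1 had a log2 difference above 0, Cavin1, where 50.6% of all genes tested did, and the median was -0.40. Cav1, the coat protein caveolin-1, stood at 14.7 and 51.1 CPM in the knockout-labelled libraries and at 23.3 and 64.2 CPM in the WT-labelled ones, and Pacsin2, which bends membranes, at 115 and 106 CPM against 113 and 200.2 CPM. The median log2 difference was 0.16 for 15 genes of lipid synthesis, 0.13 for 14 of ion transport, 0.37 for 11 of mucins and glycans, 0.04 for 8 of the interferon response and 0.09 for 13 immediate early genes. Of 12 proliferation genes, 7 passed the filter on low counts, with a median of 0.30. Mki67, a marker of dividing cells, stood at 14.7 and 3.69 CPM in the knockout-labelled libraries and at 14.7 and 7.55 CPM in the WT-labelled ones, and Ezh2, a histone methyltransferase, at 112 and 101 CPM against 88.6 and 111 CPM.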

How the data were processed

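Per the labels' protocols, nuclei were captured on Singleron microwell chips and sequenced on an Illumina NovaSeq 6000. The values the authors deposited are unnormalised UMI counts, for barcodes of 500 UMIs or more. Per the submitters' processing notes the build is GRCm38 (mm10) and Seurat 4.3.0 was used; no aligner is named there. Counts of the secretory-type nuclei were summed per library (1974873 and 1899209 UMIs in the knockout-labelled libraries, 2448657 and 794290 in the WT-labelled ones), filtered with filterByExpr, scaled by TMM and tested with the edgeR 4.0.16 quasi-likelihood F test, two-sided, adjusted by Benjamini-Hochberg at 0.05. DESeq2, other members, other scaling, no filter, a replicate block and left-out libraries were alternatives. CPM are per 1000000 UMIs of the sum, and SEs come from the fitted log2 difference and its F. The interaction fit had the library as a block. P-values measure the spread between 2 libraries per label. Intervals cover counting error only. Members, lists and named genes (all list genes, calls, the 10 smallest p and the 15 leading genes) were chosen with earlier results of these data known. The fit to secretory-type nuclei was run on simulated counts. It called 6 of 67 genes changed 2-fold, 57 of 67 changed 4-fold and 65 of 66 changed 8-fold. It also called 31 of 12977 unchanged genes. Set beside the 6, 57 and 65 changed genes called, these 31 exceed the share of false calls that an adjusted p under 0.05 aims to allow. The changed genes were drawn from those with higher counts. Of 53715 gene identifiers, 53620 matched GENCODE M21. Areg and Chi3l1 were not used here.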

Additional observations from a re-analysis of the deposited data

How the results depend on the processing

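The single called gene, Gm47283, was also called in each of the 17 alternatives run. The number of genes called was 1 as reported, 60 with no filter on low counts, 10 with the replicate block, 7 with a crossed replicate block, 7 by DESeq2, 2 with an equal number of members per library and 2 in members without a milk UMI; with 1 library left out it ran from 2 to 486, the highest without WT 1, with 54 without WT 2. The interaction count was 0 as reported and 18 with no filter on low counts; with 1 library left out it ran from 0 to 17, the highest without WT 1. The cause of these shifts was not tested, and a fit with 1 library on a side takes its spread from the other label. The replicate numbers are not stated to pair the libraries, and same-numbered libraries deviated in opposite ways (r = -0.26 over 10233 genes), which is why the crossed pairing was added after seeing the data; of the 10 genes with the smallest p, the replicate block called 7 and the crossed one 4; no paired fit was made for the shares. The difference in share of kept nuclei, 0.00916 percentage points, was -0.203 among members with an epithelial UMI and ran from -1.64 to 1.66 with 1 library left out. Over 17 named genes no alternative reversed a direction. DESeq2 size factors moved the median log2 difference of all genes from 0.00419 to -0.00687. WT 2, with 267 members and 794290 UMIs, limits the depth of every comparison.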
